A study of Gallus gallus with 6 samples.

Results

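The last stretch of cholesterol synthesis in the hen liver was examined through 8 genes: FDFT1, LSS, CYP51A1, SC4MOL, NSDHL, HSD17B7, DHCR7 and SOAT1. They were picked by name, and all 8 are among the 14078 genes of the deposited expression table. The first 7 encode enzymes of synthesis and are given in the order in which they act, and SOAT1 encodes an enzyme that esterifies the finished sterol. Liver RNA came from 3 laying hens of 30 weeks (the L30 group) and 3 juvenile hens of 20 weeks (the L20 group), all females of the Lushi green shell chicken, a domestic breed of China that the labels call Lushi chicken. Housing and feeding did not differ by group, no treatment or altered genotype is named for either, and each hen gave 1 library. The question was how hepatic expression of lipid genes differs between the physiological stages, and since all L30 hens were also older than all L20 hens, laying and age cannot be told apart.

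Cholesterol is built from acetyl-CoA in the endoplasmic reticulum and cytosol of liver cells. Mevalonate is turned into farnesyl diphosphate, farnesyl units are joined into squalene, squalene is oxidised and folded into lanosterol, and lanosterol is trimmed of its extra methyl groups and reduced to cholesterol. In mammals most of these genes are targets of SREBP-2, a transcription factor that is released from the membrane when sterol runs low, and in laying birds the liver packs cholesterol and its esters into the lipoproteins that fill the yolk.

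Expression was read as FPKM, fragment counts scaled by exon length and library size, so that levels of different genes can be set side by side. Between 13764761 and 21570437 reads were recovered on genes in each hen, and L30 hen 1 had the most. The yolk genes went with the labelled stages: VTG2, which encodes a yolk precursor protein, had 12265, 13916 and 11188 FPKM in L30 hens 1, 2 and 3, against 8.21, 2.13 and 1.13 FPKM in L20 hens 1, 2 and 3, and APOVLDLII and APOB were likewise higher in every L30 hen. All 6 hepatocyte markers looked for were measured, and the lowest ALB value of any hen was 4260 FPKM. Genes averaging 1 FPKM or more over the 6 hens, 9732 in number, were compared between the stages by limma on the log2(FPKM + 1) scale. Each log2 fold change below is L30 over L20 on that scale, on which the change of a low gene comes out smaller than it is. The DE rule asked for an unadjusted p up to 0.05. The SDE rule asked for an adjusted p (Benjamini-Hochberg) up to 0.05 and for group means that differ at least 2 times in either direction.

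The 7 enzymes of synthesis were higher in the L30 hens, and SOAT1 was lower. CYP51A1, NSDHL and HSD17B7 rose by the SDE rule and SOAT1 fell by it, so the rule was met by 3 members upward, where 1.82% of all genes tested met it, and by 1 member downward, where 0.935% did. By the DE rule 7 members were higher, against 11.0% of all genes, and 1 was lower, against 11.7%. In 7 members every L30 hen lay above every L20 hen, as in 14.0% of all genes, and in SOAT1 every L30 hen lay below every L20 hen, as in 16.0% of all genes. The median log2 fold change was 2.96 over the 8 members and 3.08 over the 7 enzymes of synthesis, against -0.04 over all genes tested. For each of the 8 genes the exact permutation test over hens gave a two-sided p of 0.1, the smallest that 3 hens against 3 allow. All of the members stand in the steroid biosynthesis list that the study drew from its own calls on the same hens, so these counts are not independent evidence of a direction. The SDE count of the members changed when single hens were left out: it was 0 without L30 hen 2, L20 hen 1, L20 hen 2 or L20 hen 3, it was 3 without L30 hen 1, and it was 7 without L30 hen 3. The count over all genes tested, 268, moved the same way. It was 67 without L30 hen 2, and 177, 92 and 64 without L20 hens 1, 2 and 3. Without L30 hen 1 it was 126, and without L30 hen 3 it was 385.

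**Figure D1:**
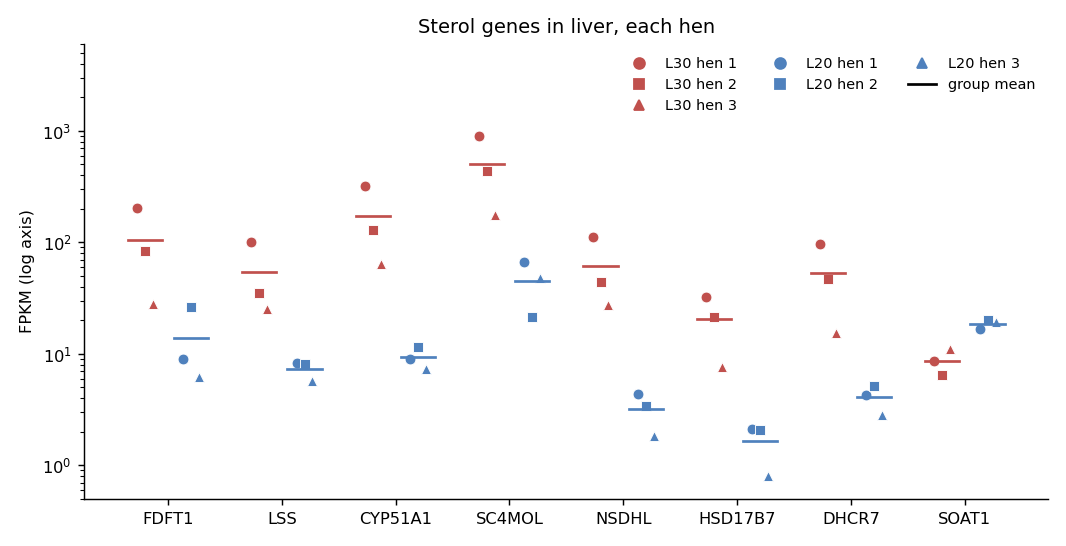
FPKM of the 8 genes on a log axis, in the order of the pathway, with 1 point per hen (L30 left and red, L20 right and blue) and a bar at each group mean over 3 hens. In the 7 enzymes of synthesis the 3 L30 points lie above the 3 L20 points, with FDFT1 nearly touching (27.7 FPKM in L30 hen 3 and 26.4 FPKM in L20 hen 2), and in SOAT1 they lie below.

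FDFT1 (ENSGALG00000016665) encodes squalene synthase, which joins farnesyl units into squalene and commits them to sterols. Its FPKM was 203, 83.5 and 27.7 in L30 hens 1, 2 and 3, against 9.01, 26.4 and 6.20 in L20 hens 1, 2 and 3. L30 hen 3 and L20 hen 2 nearly met, with a ratio of 1.05, and the groups did not overlap. The mean was 7.56 times as high in L30, with a log2 fold change of 2.66 (standard error 0.80, 95% interval 0.72 to 4.60). FDFT1 did not pass the SDE rule (adjusted p = 0.123, limma with Benjamini-Hochberg adjustment), and its interval was the widest of the 8 members. On recovered reads the adjusted p was 0.000528 with DESeq2 and 0.0935 with the quasi-likelihood test of edgeR, so DESeq2 was the only one of these 3 tests to call it.

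LSS (ENSGALG00000006198) encodes lanosterol synthase, which folds oxidised squalene into the first sterol of the pathway. The L30 hens had 101, 34.8 and 25.1 FPKM, against 8.34, 8.10 and 5.66 FPKM in the L20 hens. The L20 hens lay close together, and the lowest L30 hen had 3.01 times the level of the highest L20 hen. The log2 fold change was 2.47 (standard error 0.50), the smallest among the 7 enzymes of synthesis, with a ratio of means of 7.29. LSS missed the SDE rule narrowly (adjusted p = 0.0539 with limma), and edgeR gave an adjusted p of 0.0354. With single hens left out, the limma adjusted p ran from 0.0374 to 0.177.

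CYP51A1 (ENSGALG00000009365) encodes lanosterol demethylase, the cytochrome P450 that takes the first methyl group off lanosterol. It reached 319, 129 and 63.9 FPKM in the L30 hens, against 9.08, 11.4 and 7.31 FPKM in the L20 hens. Even the lowest L30 hen stood 5.59 times above the highest L20 hen. CYP51A1 rose 18.4 times in the mean, by 3.78 ± 0.56 on the log2 scale (estimate ± SE, limma adjusted p = 0.0279), and had the largest log2 fold change of the 8 members on this scale. NSDHL came close (3.69). With 0.1 in place of 1 added to each FPKM, NSDHL was ahead, at 4.045 against 3.905. By size of rise on the main scale CYP51A1 was number 27 of the 9732 genes tested. The adjusted p was 0.0298 without L30 hen 1 and 0.0108 without L30 hen 3, and the call was lost without L30 hen 2 (0.106), L20 hen 1 (0.0635), L20 hen 2 (0.0858) or L20 hen 3 (0.114).

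SC4MOL (ENSGALG00000009560, now named MSMO1) encodes the sterol methyl oxidase that oxidises the remaining pair of ring methyl groups. In every hen but L20 hen 2, where FDFT1 exceeded it, it was the most abundant of the 8 genes, with 900.3, 437 and 175 FPKM in the L30 hens, against 66.6, 21.2 and 47.9 FPKM in the L20 hens. L20 hen 2, which had the highest FDFT1 of its group, had the lowest SC4MOL. The log2 fold change was 3.29 (standard error 0.67) and the ratio of means 11.1. SC4MOL did not meet the SDE rule (adjusted p = 0.0554 with limma), while edgeR gave an adjusted p of 0.0409. With single hens left out, the limma adjusted p ran from 0.0288 to 0.166.

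NSDHL (ENSGALG00000007493) encodes the sterol dehydrogenase that removes the carbon oxidised by SC4MOL. Its FPKM was 111, 43.9 and 27.6 in the L30 hens, against 4.32, 3.41 and 1.83 in the L20 hens. The groups stood further apart than in any other member, with the lowest L30 hen at 6.38 times the highest L20 hen. NSDHL rose by 3.69 ± 0.52 on the log2 scale (SE, limma adjusted p = 0.0249), and its ratio of means, 19.0, was the highest of the 8. It was called without L30 hen 1 (0.0296) and without L30 hen 3 (0.0180), and the adjusted p was 0.0874 without L30 hen 2, 0.0507 without L20 hen 1, 0.0846 without L20 hen 2 and 0.0998 without L20 hen 3.

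HSD17B7 (ENSGALG00000002681) encodes the keto reductase that restores the hydroxyl group after each removed carbon, and the mammalian enzyme can also reduce estrone. It was the least abundant enzyme of synthesis, at 32.3, 21.2 and 7.66 FPKM in the L30 hens, against 2.11, 2.08 and 0.804 FPKM in the L20 hens. The value of L20 hen 3 rested on 46 recovered reads, the fewest of any member in any hen. HSD17B7 rose by 2.84 ± 0.51 on the log2 scale (SE, limma adjusted p = 0.0443), with a ratio of means of 12.2. Without L30 hen 3 the adjusted p was 0.00970, and the call was lost without L30 hen 1 (0.0952), L30 hen 2 (0.138), L20 hen 1 (0.0835), L20 hen 2 (0.117) or L20 hen 3 (0.153). It was also lost when no filter on low genes was applied (0.0653).

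DHCR7 (ENSGALG00000004106) encodes dehydrocholesterol reductase, which closes the route by reducing a ring double bond to give cholesterol. The L30 hens had 96.3, 46.8 and 15.3 FPKM, against 4.23, 5.18 and 2.85 FPKM in the L20 hens. The lowest L30 hen had 2.95 times the level of the highest L20 hen. The log2 fold change was 3.08 (standard error 0.62) and the ratio of means 12.9. DHCR7 missed the SDE rule (adjusted p = 0.0539 with limma), and edgeR gave an adjusted p of 0.0313. With single hens left out, the limma adjusted p ran from 0.0108 to 0.177.

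The 7 enzymes of synthesis shared an order among the L30 hens. L30 hen 1 was highest and L30 hen 3 lowest in all 7 genes, with hen 2 between them, an order found in 16.1% of all genes tested. The 7 genes belong to 1 pathway and were read in the same 3 hens. They therefore give 1 order of 3 hens and not 7 separate observations. L30 hen 1 stood at 13.7 to 34.7 times the L20 mean, L30 hen 2 at 4.73 to 13.9 times and L30 hen 3 at 2.00 to 8.65 times. The highest L30 hen had 4.015 to 7.322 times the level of the lowest in the 7 genes, with a median of 4.992, against a median of 1.371 over all genes tested. A ratio of at least 4 was found in 3.72% of all genes. That cut lies just under the lowest ratio of the 7 genes, so all 7 passing it follows from the cut. In the L20 group a ratio of at least 4 was reached by 1 of the 7 genes, FDFT1, against 2.54% of all genes. On the log2 scale the median SD over the 7 genes was 1.154 in L30 and 0.4494 in L20, against 0.1942 in L30 and 0.1818 in L20 over all genes tested. VTG2, APOVLDLII and APOB were highest in L30 hen 2 and lowest of the group in L30 hen 3. The yolk genes thus shared the lowest hen but not the full order. L30 hen 1 also had the deepest library, and the part of depth in this order was not tested.

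**Figure D2:**
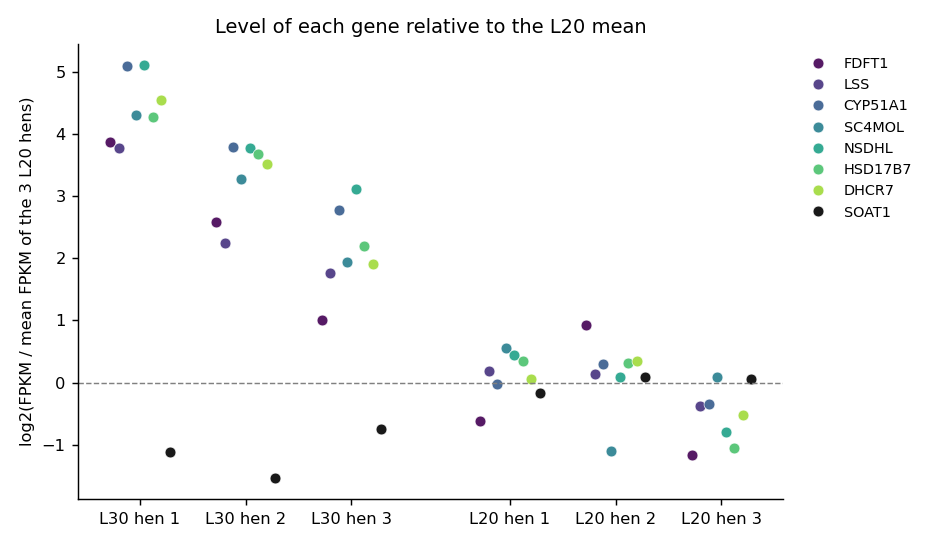
Level of each gene in each hen as log2 of its FPKM over the mean of the 3 L20 hens, 1 point per gene, with the dashed line at the L20 mean. Each of the 7 enzymes of synthesis is highest in L30 hen 1 and lowest of its group in L30 hen 3, SOAT1 (black) lies below the line in all 3 L30 hens, and in L20 hen 2 FDFT1 and SC4MOL lie farthest from the line, on opposite sides.

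The L20 hens showed no shared order of this kind. Of the 7 enzymes, 3 were highest in L20 hen 1 with hen 2 next, 3 were highest in L20 hen 2 with hen 1 next, and SC4MOL was highest in L20 hen 1 and lowest in hen 2. In L20 hen 3 the other 6 enzymes were at their lowest. FDFT1 in L20 hen 2 was 4.26 times its level in L20 hen 3, while CYP51A1 and LSS differed less between the L20 hens.

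Summed over the 7 enzymes, the FPKM was 1762, 797 and 342 in L30 hens 1, 2 and 3, against 104, 77.8 and 72.6 in the L20 hens. These genes took 0.408%, 0.158% and 0.0749% of the recovered reads in the L30 hens, against 0.0270%, 0.0205% and 0.0176% in the L20 hens. SC4MOL alone made up 51.1%, 54.9% and 51.1% of the summed FPKM in the L30 hens, against 64.2%, 27.3% and 66.0% in the L20 hens. The 3 most abundant genes in every L30 hen were SC4MOL, CYP51A1 and FDFT1, in that order. Below them NSDHL, LSS and DHCR7 had overlapping ranges of 27.6 to 111, 25.1 to 101 and 15.3 to 96.3 FPKM in L30, so their order did not hold up against the spread between hens. HSD17B7 followed with 7.66 to 32.3 FPKM. SOAT1 was the lowest of the 8 in L30 hens 1 and 2 and the next to lowest in L30 hen 3, whereas in the L20 hens only SC4MOL and, in hen 2, FDFT1 exceeded it.

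SOAT1 (ENSGALG00000004205) encodes a sterol acyltransferase that links cholesterol to a fatty acid for storage, and in mammals it is the form found in most tissues and in macrophages, while SOAT2 is the form of liver cells and intestine. SOAT1 had 8.59, 6.42 and 11.1 FPKM in the L30 hens, against 16.7, 19.9 and 19.4 FPKM in the L20 hens. The groups did not overlap, and L30 hen 3, the lowest hen for the 7 enzymes of synthesis, was the highest L30 hen for SOAT1. SOAT1 fell, its log2 fold change being -1.04 ± 0.20 (SE, 95% interval -1.52 to -0.57, limma adjusted p = 0.0483), with a ratio of means of 0.466. It stayed called without L30 hen 3 (0.0278), and the adjusted p was 0.120 without L30 hen 1, 0.120 without L30 hen 2, 0.0851 without L20 hen 1, 0.132 without L20 hen 2 and 0.165 without L20 hen 3. The call was also lost with median-ratio scaling (0.0517) and with no filter on low genes (0.0682). The name SOAT2 was not found in the table and is not analysed here.

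Macrophage markers were lower in L30, as SOAT1 was, and so were most markers of lymphocytes and endothelium. Markers of other cells went both ways, were lower only in part or were not DE. Of 6 macrophage markers 5 were in the table, all 5 lay lower in every L30 hen than in any L20 hen, as 16.0% of all genes tested did, and their summed FPKM was 571 to 715 in L30 and 886 to 987 in L20. CD74 was the largest part of this sum, with 479, 432 and 368 FPKM in the L30 hens and 555, 614 and 494 FPKM in the L20 hens. It was not DE (unadjusted p = 0.0724, limma), while the other 4 were DE downward, where 11.7% of all genes tested were. C1QA, a complement subunit made by macrophages, fell by the SDE rule with a log2 fold change of -1.002 (adjusted p = 0.0443 with limma), and the log2 fold changes of CSF1R, MARCO, CD74 and C1QB were -0.82, -0.87, -0.38 and -0.99. The C1QA call was lost whichever hen was left out (adjusted p from 0.0558 to 0.152), and none of the 5 markers was at 0 in any hen. Summed lymphocyte markers had 25.7 to 29.3 FPKM in L30 and 43.4 to 45.1 FPKM in L20, and summed endothelial markers had 26.6 to 46.3 FPKM in L30 and 60.3 to 72.0 FPKM in L20. Of 5 lymphocyte entries tested 4 were DE downward, and of 4 endothelial markers 3 were, against 11.7% of all genes tested. CD8A (unadjusted p = 0.0622, limma) and VWF (0.149) were not DE, and CD79B was too low to be tested. In L30 hen 3 KDR (5.91 FPKM) and VWF (10.9 FPKM) lay above L20 hen 3 (5.80 and 9.69 FPKM). Hepatocyte markers went both ways: ALB, AHSG and TTR had log2 fold changes of 1.10, 2.22 and 0.17, and the fibrinogens FGA, FGB and FGG had -1.55, -1.43 and -1.54, none of them past the SDE rule. Of these 6 hepatocyte markers 2 were DE upward and 3 DE downward, where 11.0% and 11.7% of all genes tested were. The summed FPKM of the 6, 24317 to 36097 in L30 and 38625 to 44661 in L20, followed the fibrinogens. Of 3 red cell markers none was DE (median log2 fold change 0.02), and the 1 bile duct marker tested had -0.17. Of 4 stellate cell and fibroblast markers 2 were DE downward, where 11.7% of all genes tested were. Their median log2 fold change was -0.61, against -0.53 for lymphocyte, -0.70 for endothelial and -0.87 for macrophage markers. Within L30, SOAT1 was highest in hen 3 and lowest in hen 2, an order found in 17.6% of all genes tested. Of the macrophage markers only CSF1R shared this order, while MARCO, CD74, C1QA and C1QB were highest in L30 hen 1. KDR, VWF, CDH5, COL3A1, DCN and DES also shared it, whereas STAB2, COL1A2 and the lymphocyte entries tested did not. The part of these cells in the SOAT1 result was not tested, and in bulk tissue fewer cells of a type and less RNA per cell cannot be told apart.

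**Figure D3:**
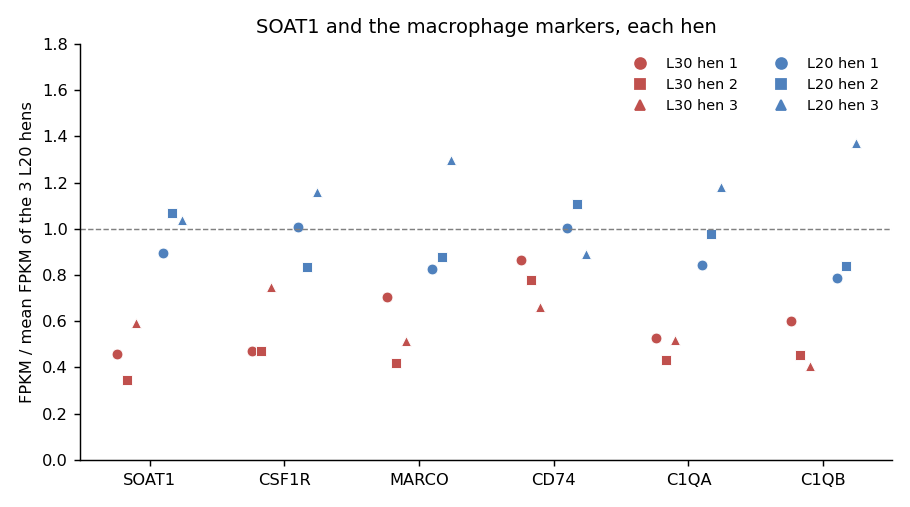
FPKM of SOAT1 and of 5 macrophage markers divided by the mean of the 3 L20 hens, with 1 point per hen (L30 left and red, L20 right and blue) and the dashed line at the L20 mean. In all 6 genes the 3 L30 points lie below the 3 L20 points, and the L30 points of SOAT1 stand at 0.460, 0.344 and 0.594.

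Among the late enzymes outside the 8 genes, SQLE rose as well. Of 7 such names 4 were in the table and tested, with a median log2 fold change of 0.69. The SDE rule was met upward by 1 of them and the DE rule upward by 2, where 1.82% and 11.0% of all genes tested met them. None fell. SQLE, squalene epoxidase, acts between FDFT1 and LSS and had 178, 62.1 and 32.6 FPKM in the L30 hens, against 2.41, 4.65 and 0.812 FPKM in the L20 hens. Its log2 fold change, 4.47 ± 0.68 (SE, limma adjusted p = 0.0305), was above that of every member. It also had the same order of L30 hens as the 7 enzymes.

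The other late enzymes had smaller log2 fold changes. LBR, the lamin B receptor with its sterol reductase domain, had 54.4, 44.3 and 45.1 FPKM in the L30 hens, against 32.4, 36.4 and 30.2 FPKM in the L20 hens, and was DE but not SDE (log2 fold change 0.52, adjusted p = 0.104 with limma). SC5D, the sterol desaturase, had 137, 102 and 72.7 FPKM in the L30 hens, against 85.7, 38.7 and 50.6 FPKM in the L20 hens, and the groups overlapped (log2 fold change 0.85, adjusted p = 0.222 with limma). ERG28, listed as C14orf1 and thought to hold sterol enzymes together, had 183, 82.5 and 105 FPKM in the L30 hens, against 75.8, 107 and 89.6 FPKM in the L20 hens, with a log2 fold change of 0.37 (adjusted p = 0.523 with limma). SC5D, which makes the substrate of DHCR7, and ERG28 passed neither the DE rule nor the SDE rule.

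Genes around the late enzymes were read from 4 further lists of the pathway, whose counts stand against the shares over all genes tested: 11.0% DE upward, 11.7% DE downward and 1.82% SDE upward. Of 8 mevalonate and isoprenoid enzymes 6 were tested, 3 were DE upward and 1 was SDE, with a median log2 fold change of 0.67. The called gene was FDPS, farnesyl diphosphate synthase, which makes the substrate of FDFT1 and had 432, 111 and 74.1 FPKM in the L30 hens, against 13.9, 10.8 and 8.32 FPKM in the L20 hens (log2 fold change 3.71, adjusted p = 0.0417 with limma). Of 6 electron donors of the pathway 5 were tested, and 1 was DE upward, 1 DE downward and none SDE, with a median log2 fold change of 0.34. These donors pass electrons to the P450, the epoxidase, the oxidase and the desaturase of the pathway.

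The sterol sensing list had 12 names, of which 10 were tested, 6 were DE upward and 2 were SDE, with a median of 0.83 on the log2 scale. SREBF2, which encodes SREBP-2, had 79.7, 42.7 and 39.8 FPKM in the L30 hens, against 12.8, 18.8 and 9.09 FPKM in the L20 hens (log2 fold change 1.90, adjusted p = 0.0465 with limma). INSIG1, which retains SREBP in the endoplasmic reticulum when sterol is plentiful and is itself an SREBP target in mammals, had 923, 907 and 333 FPKM in the L30 hens, against 153, 71.8 and 71.6 FPKM in the L20 hens (log2 fold change 2.81, adjusted p = 0.0441 with limma). L30 hen 3 was lowest for both, as for the 7 enzymes. Over all genes tested it was lowest in 16.1% with L30 hen 1 highest and in a further 18.0% with L30 hen 2 highest. For INSIG1 L30 hens 1 and 2 were close, and for SREBF2 L30 hens 2 and 3 were.

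Of 11 genes of sterol export, efflux and ester handling 10 were tested, 3 were DE upward, 2 DE downward and 1 SDE (over all genes tested 11.0% were DE upward, 11.7% DE downward and 1.82% SDE upward), with a median log2 fold change of 0.31. The SDE gene was NCEH1, a hydrolase that in mammals splits cholesterol esters, the reverse of what SOAT1 does. NCEH1 had 167, 165 and 177 FPKM in the L30 hens, against 5.78, 11.3 and 13.7 FPKM in the L20 hens (log2 fold change 3.99, standard error 0.29, adjusted p = 0.00303 with limma). The L30 hens were level for NCEH1, unlike the spread they showed in the 7 enzymes. Of the 5 context genes called by the SDE rule, NCEH1 kept its call without any single hen, with an adjusted p of at most 0.0201. SQLE and FDPS kept theirs only without L30 hen 1 (0.0486 and 0.0193) or L30 hen 3 (0.0226 and 0.0269), INSIG1 only without L30 hen 3 (0.0192), and SREBF2 lost its call whichever hen was left out, with 0.0503 without L30 hen 3 as its lowest adjusted p. With no filter on low genes the calls of FDPS (0.0593), INSIG1 (0.0632) and SREBF2 (0.0658) were lost.

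**Figure D4:**
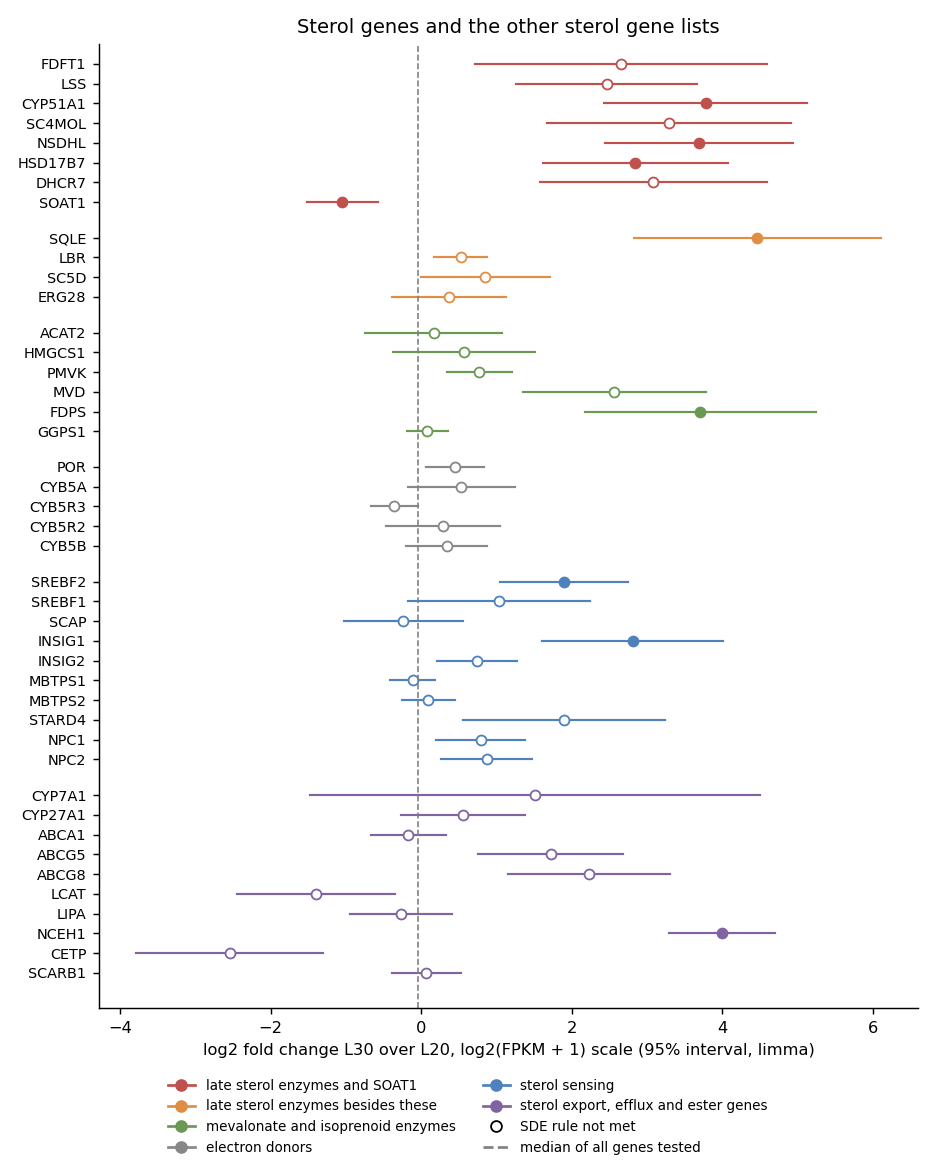
Log2 fold change of L30 over L20 with its 95% interval from limma, for the 8 genes at the top and below them the tested genes of 5 lists of the sterol pathway; filled points met the SDE rule and the dashed line is the median of all genes tested (-0.04). The 7 enzymes of synthesis lie between 2.47 and 3.78, where SQLE, MVD, FDPS, INSIG1 and NCEH1 also lie or exceed them, and the electron donors lie near the dashed line.

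The genes whose profile over the 6 hens was most like that of the 8 members were found by Pearson's r between log2(FPKM + 1) and the mean standardized profile of the members. Among the 5 highest were ENSGALG00000026540 (r = 0.999), FDPS (r = 0.993), HIPK3 (r = 0.991) and ENSGALG00000026480 (r = 0.990). The mean profile included SOAT1, which ran opposite to the 7 enzymes of synthesis. With SOAT1 left out of it, ENSGALG00000026540 (r = 0.995) and FDPS (r = 0.992) stayed among the 5 highest. ENSGALG00000026480 (r = 0.988) and HIPK3 (r = 0.988) then ranked 9 and 10. These values describe 6 hens that fall into 2 groups, and the measure does not set the difference between the groups apart from the order within them. ENSGALG00000026540, a gene without a name on an unplaced scaffold, had 28.8, 10.03 and 6.22 FPKM in the L30 hens, against 1.43, 1.58 and 0.887 FPKM in the L20 hens. HIPK3, a protein kinase of the nucleus, had a log2 fold change of 0.65, so a like profile went with a much smaller change than in the members.

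In the galGal4 coordinates of the deposited table, FDFT1 spans chromosome 3, 106985672 to 106996753, LSS spans chromosome 7, 6911104 to 6920391, and CYP51A1 spans chromosome 2, 22620216 to 22633995. SC4MOL (23326893 to 23333143) and NSDHL (11231921 to 11242461) are both on chromosome 4, far from each other. HSD17B7 (3787877 to 3794587) and SOAT1 (6145934 to 6172666) are both on chromosome 8, and DHCR7 spans chromosome 5, 1673769 to 1680338.

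Within 100 kb of the 8 genes lay 68 others, of which 47 were tested, and more of these were lower than higher in L30. Of the 47, 6 were DE upward and 13 DE downward, where 11.0% and 11.7% of all genes tested were, with a median log2 fold change of -0.12. Some of the DE neighbours in each direction are gallinacin (GAL) genes that lie in a run beside FDFT1, so these counts are not of separate loci. The SDE rule was met by 4 of the 47, 2 in each direction, where 1.82% of all genes tested met it upward and 0.935% downward, and the difference from these shares was not tested. NADSYN1, an enzyme of NAD synthesis, had 14.2, 16.6 and 9.90 FPKM in the L30 hens, against 6.70, 5.34 and 5.96 FPKM in the L20 hens (log2 fold change 1.03, adjusted p = 0.0491 with limma). Its listed span lies 373 bp from DHCR7. Another neighbour is listed at the same distance, so that span may be shared and the distance of NADSYN1 itself is not settled. TOR3A, 51246 bp from SOAT1, rose with a log2 fold change of 2.83 (adjusted p = 0.00449 with limma) where SOAT1 fell. The other 2 called neighbours, IFITM5 and ENSGALG00000026970 near DHCR7, were lower in L30, with log2 fold changes of -0.96 and -1.91. Leaving out each hen in turn kept the TOR3A call (adjusted p of at most 0.0316), whereas NADSYN1 and IFITM5 kept theirs only without L30 hen 3 (0.0215 and 0.0292) and ENSGALG00000026970 lost its call each time (at least 0.0526). The unnamed ENSGALG00000027596 overlaps FDFT1 in the table, and because the library kit does not mark strand, reads of overlapping genes cannot be told apart. Its FPKM was at most 1.46 in any hen, against at least 6.20 for FDFT1.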

How the data were processed

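Liver mRNA of 3 laying (L30) and 3 juvenile (L20) hens was sequenced, 1 library per hen, from poly(A)-selected RNA. The authors used CASAVA 1.8.2 and TopHat2 2.0.9 with galGal4 and deposited an FPKM for each gene in each hen, computed with the Cufflinks programs. Beside it the authors deposited a scaled read count, a signal that is no whole number. It was divided by what 1 read is worth in that library and rounded to give recovered reads. Of the low values in a library, 99.89% or more came out whole within 0.1 read, and a few values in 3 libraries lay below 1 read. The planned count test therefore served as an alternative only.

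FPKM values were tested with limma 3.58.1 (R 4.3.3), with a trend in eBayes, two-sided, over genes that averaged 1 FPKM or more. Tables were handled with Python 3.11.15 and pandas 2.3.3. Alternatives changed the pseudocount, the filter, the scaling, the block, the trend and the fold rule, left out each hen, or used edgeR 4.0.16 and DESeq2 1.42.0 on the recovered reads. The methods were tested on simulated data. Replicates are separate hens, and the study names no pairing by their numbers. Samples were grouped by library title.

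The members, the gene lists and the tests were chosen with earlier results of these data known. Named genes are all members, every other late sterol enzyme, list genes past the SDE rule, genes among the 5 most like the members, yolk genes as checks, and neighbours past the SDE rule; the neighbours and the overlapping gene were chosen after their values were seen. Some genes of these pathways are not reported here and were left out of the list counts. Isoforms were not analysed here.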

Additional observations from a re-analysis of the deposited data

How the results depend on the processing

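The direction of all 8 members was the same under each of the 18 alternatives. As the groups overlapped in no member, leaving out a hen or changing the pseudocount could not turn a direction. The filter, block, trend and fold rule left the log2 fold changes as they were, so the shared direction is no added evidence. Of 144 single values 103 kept their side of the test's threshold, 23 lost the call, 18 gained it and 0 reversed. Dropping the fold rule could change no member's call, as all 8 means differed at least 2 times. The number of members past the SDE rule (4) was 2 with no filter, 7 with a mean FPKM of at least 5, 7 with edgeR, 8 with DESeq2, and 0 to 7 when each hen was left out. The number of other sterol pathway genes past the rule (5) was 3 with no filter, 3 with quantile normalization, 9 with edgeR, 14 with DESeq2, and 1 to 8 without single hens. Over all genes the 268 SDE genes became 429 with edgeR, 883 with DESeq2, and 64 to 385 without single hens. Leaving out a hen leaves fewer samples and no filter adds low genes to the adjustment; other causes were not tested. Median-ratio scaling gave 3 members, SOAT1 being lost, and quantile normalization took INSIG1 and SREBF2 off (adjusted p = 0.0512 each, limma). With a replicate block the counts were 2 members, 1 other sterol pathway gene and 54 of all genes. The study names no pairing by number. The deviations of same-numbered hens from their group means had correlations of 0.0166, 0.0117 and 0.0943. L30 hens 1 and 3 correlated best with the L20 hen of their own number, and L30 hen 2 with L20 hen 1 (0.0595). Correlations this small cannot decide whether the hens were paired. By the DE rule 8 members passed under every alternative except without L20 hen 3, where 7 did. With 3 hens per group and an L30 spread this wide, the calls near the threshold cannot be settled by these libraries.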
